A study of Mus musculus with 28 samples.

Results

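The 10 genes described here are the identity genes of midbrain dopamine neurons, *Th*, *Ddc*, *Slc6a3*, *Slc18a2*, *Pitx3*, *Nr4a2*, *Lmx1a*, *Lmx1b*, *Foxa2* and *En1*. They were taken by gene symbol from the 23038 genes of the deposited expression tables, and all 10 were found. RNA-seq was performed on mice carrying a humanized NOVA1, a neuronal splicing factor in which isoleucine at position 197 was replaced by the valine of modern humans (I197V), and on their wild-type littermates. Homozygous *Nova1* hu/hu mice (hu) and *Nova1* wt/wt mice (wt) were compared in midbrain at E18.5 (6 hu and 6 wt libraries) and at P21 (4 and 4) and in cortex at P21 (4 and 4). The substitution was made by CRISPR/Cas9 knock-in in the germline and backcrossed to C57BL/6J, so every cell of a hu animal carried it, and all libraries came from dissected bulk tissue. Library totals were 18550922 to 35047494 counts at E18.5, and at P21 they were 25256326 to 45134998 for midbrain and 30423267 to 35643736 for cortex.

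Dopamine is made from tyrosine by tyrosine hydroxylase (*Th*) and aromatic L-amino acid decarboxylase (*Ddc*), is loaded into vesicles by the vesicular monoamine transporter (*Slc18a2*) and is taken back up from the synapse by the dopamine transporter (*Slc6a3*). The neurons of the substantia nigra and ventral tegmental area arise from the floor plate of the embryonic midbrain, where *Foxa2*, *Lmx1a*, *Lmx1b* and *En1* act early and *Nr4a2* and *Pitx3* act in the postmitotic neurons. *Th* is shared by all catecholamine neurons, and *Ddc* and *Slc18a2* are also used by serotonin neurons, while *Slc6a3* is the most restricted of the enzyme and transporter genes.

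The promoter windows of *Th*, *Slc6a3* and *Ddc* are printed because these 3 genes rose with age and had correlations of 0.832 to 0.980 with each other among the P21 midbrain libraries. Each is the 250 bases before a transcription start in RefSeq (GRCm38.p6), 5′ to 3′ on the strand of the gene. The *Th* window lies on the minus strand at chr7:142899996-142900245, the *Slc6a3* window on the plus strand at chr13:73536497-73536746 and the *Ddc* window on the minus strand at chr11:11898145-11898394. Capitals mark a cAMP response element (CRE, TGACGTCA) in *Th*, and in *Ddc* the overlapping matches to the NBRE (AAAGGTCA), the site bound by the *Nr4a2* product, and to a TATA box (TATAAA), both on the opposite strand.
Th: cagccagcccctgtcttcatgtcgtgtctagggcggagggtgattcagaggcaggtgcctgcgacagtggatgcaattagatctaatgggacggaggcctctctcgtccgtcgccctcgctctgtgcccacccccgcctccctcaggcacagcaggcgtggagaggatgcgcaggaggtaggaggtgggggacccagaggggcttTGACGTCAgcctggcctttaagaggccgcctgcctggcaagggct
Slc6a3: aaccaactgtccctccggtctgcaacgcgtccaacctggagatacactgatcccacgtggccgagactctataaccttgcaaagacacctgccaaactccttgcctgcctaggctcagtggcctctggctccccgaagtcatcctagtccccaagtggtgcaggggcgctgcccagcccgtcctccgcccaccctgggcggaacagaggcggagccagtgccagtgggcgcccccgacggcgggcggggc
Ddc: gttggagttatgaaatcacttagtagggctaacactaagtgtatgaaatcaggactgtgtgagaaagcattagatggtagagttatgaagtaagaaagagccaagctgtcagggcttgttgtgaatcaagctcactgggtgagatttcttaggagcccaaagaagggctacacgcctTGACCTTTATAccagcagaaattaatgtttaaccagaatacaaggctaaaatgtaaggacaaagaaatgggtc

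On either strand, the CRE occurred in 1.546% of the 32851 RefSeq promoter windows of this length, and among the 13 windows of the 10 genes only in that of *Th*, 45 bases before the start. The NBRE occurred in 1.336% of all windows and, among those of the 10 genes, only in *Ddc*, 73 bases before the start, where it shared bases with the TATA box match. A TATA box was present in 12.37% of all windows and in 1 window each of *Ddc*, *Foxa2* and *Nr4a2*. The homeodomain core TAATTA (4.84% of all windows), the bicoid-type site TAATCC (6.252%) and the forkhead core TGTTTAC (3.166%) were in none of the 13. GC content was 64.4% for *Th*, 66% for *Slc6a3* and 40.8% for the printed window of *Ddc*, against a median of 52.4% over all windows. Another window of *Ddc*, at chr11:11890409-11890658, had 56% and matched neither the NBRE nor the TATA box. Counts were per gene, so which start of *Ddc* was used in these tissues was not tested. These matches describe letters in a window and are not evidence of binding.

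In P21 midbrain, enzyme and transporter transcripts stood far above those of the transcription factors. Levels are given in TPM (each gene's count per exon length, scaled to the same total in every library), which corrects for length and allows genes to be compared. Mean TPM ± SD over the 8 libraries was 110 ± 5.22 for *Ddc*, 97.8 ± 6.94 for *Th*, 56.7 ± 4.89 for *Slc6a3* and 42.7 ± 2.90 for *Slc18a2*. Among the transcription factors it was 9.25 ± 0.573 for *Nr4a2*, 5.52 ± 0.582 for *En1*, 4.89 ± 0.879 for *Lmx1b*, 1.80 ± 0.410 for *Lmx1a*, 0.911 ± 0.178 for *Pitx3* and 0.874 ± 0.168 for *Foxa2*. Every library kept this order, except between *En1* and *Lmx1b* and between *Pitx3* and *Foxa2*. The ranges overlapped between *Ddc* and *Th*, although *Ddc* was higher in 8 of 8 libraries, between *En1* and *Lmx1b*, and between *Pitx3* and *Foxa2*.

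**Figure D1:**
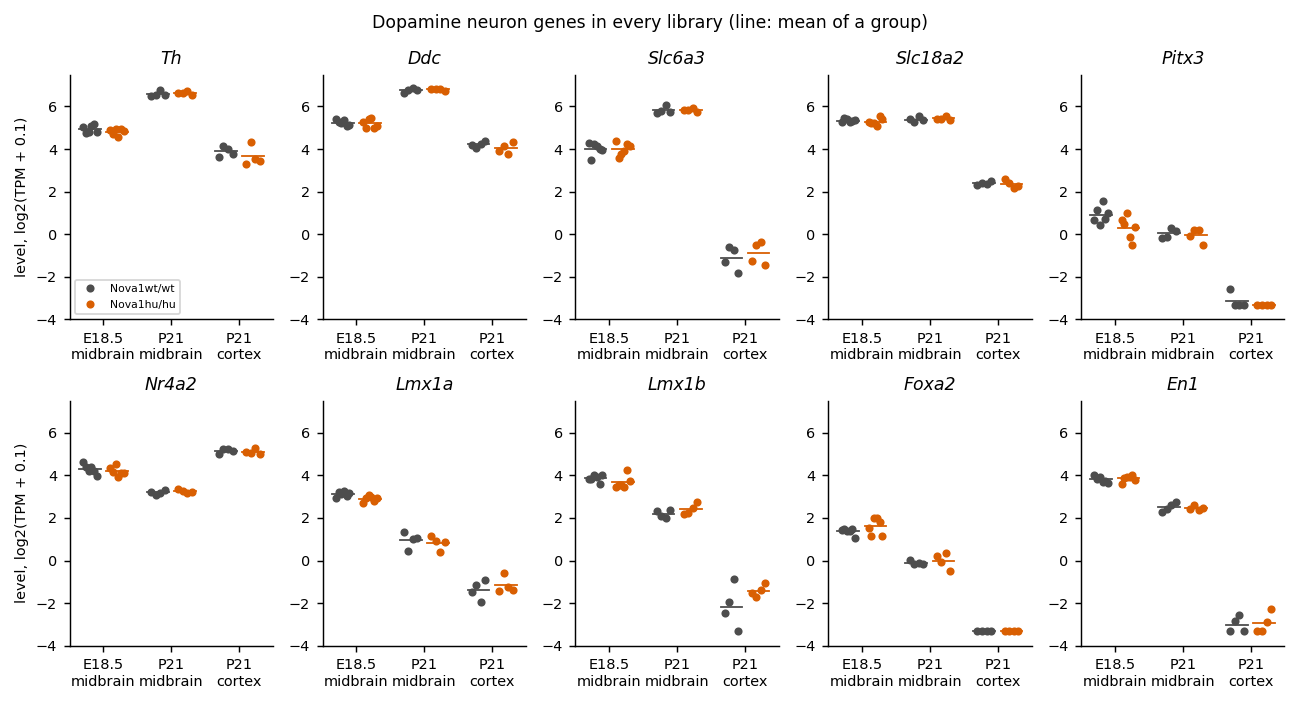
Level of each of the 10 genes in every library. The vertical axis is log2(TPM + 0.1), each panel is 1 gene, grey points are wt and orange points hu libraries of embryonic midbrain (E18.5), and of midbrain and cortex at P21, and lines are group means. Wt and hu points intermix in all panels, *Th*, *Ddc* and *Slc6a3* are highest in P21 midbrain, *Nr4a2* is highest in P21 cortex, and *Foxa2* is at 0 in all cortex libraries.

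At E18.5 the order differed. *Slc18a2* (39.8 ± 3.57 TPM, n = 12), *Ddc* (37.5 ± 4.21) and *Th* (29.6 ± 3.56) were followed by *Nr4a2* (19.1 ± 2.96), *Slc6a3* (16.3 ± 2.97), *En1* (14.2 ± 1.37) and *Lmx1b* (13.7 ± 2.47), whose ranges overlapped from each gene to the next. *Lmx1a* (8.01 ± 0.94), *Foxa2* (2.76 ± 0.65) and *Pitx3* (1.53 ± 0.60) came last, and *Lmx1a* lay below *Lmx1b* and above *Foxa2* in all 12 libraries with no overlap of ranges. The order of *Lmx1b* and *Lmx1a* rests on the exon lengths used, 1219 and 3338 bases. Mean counts at E18.5 were 121 for *Lmx1b* and 194 for *Lmx1a*, and in P21 midbrain each had 551 counts over the 8 libraries. *Pitx3* rested on 6 to 26 counts per library at this age, against 265 to 555 for *Th*, so that its level carried the largest counting error of the 10.

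The comparison of P21 midbrain with P21 cortex checks the label of the dissection. Of the 10 genes, 9 were higher in midbrain and 1 (*Nr4a2*) was higher in cortex (edgeR quasi-likelihood test with genotype as covariate, adjusted p under 0.05 and at least 2-fold). Of all 16129 genes tested, 7.66% were higher and 7.44% lower in midbrain, and the median log2 fold change was 3.65 over the 10 members against 0.00021 over all genes. That median was the same with *Foxa2*, which had no counts in cortex, taken at its lower bound. In bulk tissue, fewer cells of a type and less RNA per cell cannot be told apart, and this holds for all differences below. Both regions were dissected separately from P21 mice and no batch was given in the labels, so a difference in handling between the dissections cannot be told apart from region.

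*Th*, the rate-limiting enzyme of dopamine synthesis, stood at 97.5, 100.5, 107 and 92.1 TPM in hu replicates 1 to 4 of P21 midbrain and at 89.9, 94.4, 108 and 92.6 TPM in wt replicates 1 to 4. In cortex it was at 9.83, 19.8, 11.6 and 10.7 TPM in hu and at 12.2, 17.8, 15.9 and 13.7 TPM in wt. Midbrain libraries did not overlap with cortex libraries, and within cortex the second replicate of both genotypes was the highest. The difference was 6.65-fold (log2 fold change 2.73, SE 0.10, adjusted p = 1.48e-17).

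*Ddc*, the decarboxylase that completes synthesis of dopamine and of serotonin, ranged from 100.2 to 118 TPM in P21 midbrain and from 13.5 to 20.7 TPM in cortex, a 5.95-fold difference (log2 2.57, SE 0.063, adjusted p = 3.03e-21). *Slc18a2* ranged from 38.5 to 47.5 TPM against 4.44 to 5.85 TPM in cortex and was 7.93-fold higher in midbrain (log2 2.99, SE 0.056, adjusted p = 1.79e-23). For both genes the regions did not overlap.

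*Slc6a3* separated the regions most among the enzymes and transporters. Its levels in midbrain were 57.1, 57.3, 60.9 and 52.7 TPM in hu and 51.5, 54.9, 66.2 and 53.2 TPM in wt. Its levels in cortex were 0.318, 0.605, 0.684 and 0.268 TPM in hu and 0.305, 0.556, 0.496 and 0.185 TPM in wt, from 131 counts over 8 libraries. The 124-fold difference (log2 6.95, SE 0.11, adjusted p = 1.47e-24) compared with 6.65-fold for *Th*, and in cortex the TPM of *Th* was above that of *Slc6a3* in every library.

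Among the transcription factors, *Foxa2*, a forkhead factor of the floor plate, had 171 counts over the 8 midbrain libraries and 0 over the 8 cortex libraries. With a floor of 3 counts over the cortex group, it was at least 52.0-fold higher in midbrain. *Pitx3*, a homeodomain factor of dopamine neurons, had 116 counts against 1, a ratio of 106 (exact 95% counting interval 18.6 to 4217), and *En1*, an engrailed homeodomain factor of the midbrain and hindbrain, 1311 against 7, a ratio of 171 (82.7 to 426). These intervals and the floor cover counting error only.

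The LIM homeodomain factors had low counts in cortex. *Lmx1b* had 551 counts in midbrain and 24 in cortex (19.9-fold, log2 4.32, SE 0.26, adjusted p = 1.78e-13), and *Lmx1a* 551 and 98 (5.06-fold, log2 2.34, SE 0.21, adjusted p = 3.05e-10). *Lmx1a* ranged from 1.21 to 2.43 TPM in midbrain and from 0.162 to 0.577 TPM in cortex, without overlap.

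*Nr4a2*, an orphan nuclear receptor, ran opposite to the other 9 genes. It stood at 33.6, 33.2, 38.6 and 32.3 TPM in hu cortex and at 31.5, 38.0, 37.7 and 34.7 TPM in wt cortex. In midbrain its 8 libraries lay between 8.25 and 10.03 TPM, below every cortex library. The level in cortex was 3.98-fold that in midbrain (log2 fold change of midbrain over cortex −1.99, SE 0.054, adjusted p = 2.69e-20), and with a mean of 35.0 ± 2.79 TPM it was the most abundant of the 10 genes in cortex, where *Ddc* (17.6 ± 2.53) and *Th* (13.9 ± 3.57) followed with overlapping ranges.

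Other genes of the pathway were followed as fixed lists. Of 14 further markers of dopamine neurons, 10 were higher in P21 midbrain and 0 lower, among them the nicotinic receptor subunit *Chrna6* (log2 4.61), gamma-synuclein *Sncg* (4.01), *En2* (3.58) and *Foxa1*, which was near 0 in cortex (mean 0.00392 TPM) and stood at 1.33 ± 0.375 TPM in midbrain. Of 6 genes that make or recycle tetrahydrobiopterin, the cofactor of TH, 3 were higher (*Gchfr*, log2 4.28, *Pcbd1*, 1.89, and *Gch1*, 1.82) and 0 lower. Of 4 dopamine receptor genes tested out of 5, 0 were higher and 1 was lower, the D1 receptor *Drd1* (listed as *Drd1a*), at −3.97. None of 3 genes of dopamine breakdown passed both thresholds.

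Markers of other cells that express some of the 10 genes moved with region as well. The serotonin markers *Tph2*, *Slc6a4* and *Fev* were all higher in midbrain (3 of 3), and their sum was 36.1 to 51.3 TPM at E18.5, 66.1 to 90.9 TPM at P21, and 1.33 to 2.88 TPM in cortex. The noradrenaline markers, among them *Dbh*, *Slc6a2* and *Phox2a*, were also higher (4 of 4), with sums of 17.7 to 25.3, 26.6 to 35.6 and 1.55 to 3.19 TPM. In P21 midbrain, *Tph2* was at 35.1 to 47.5, *Slc6a4* at 29.2 to 41.7 and *Fev* at 1.08 to 1.83 TPM, against 1.21 to 2.71, 0 to 0.166 and 0 to 0.127 TPM in cortex. *Dbh* was at 17.5 to 26.2, *Slc6a2* at 5.22 to 7.53 and *Phox2a* at 0.827 to 2.41 TPM, against 0.760 to 2.52, 0 to 0.132 and 0.364 to 0.892 TPM. All 9 markers of neighbouring regions were higher in midbrain: the hypothalamic peptides *Oxt*, *Avp*, *Pmch* and *Hcrt* summed to 327 to 419 TPM against 1.49 to 32.9 TPM, the hindbrain genes *Hoxa2*, *Hoxb2* and *Hoxb3* to 2.19 to 10.4 against 0 to 0.0258 TPM, and the granule cell genes *Gabra6* and *Cbln3* to 0.858 to 14.1 against 0.0813 to 0.401 TPM. Their part in the levels of *Th*, *Ddc*, *Slc18a2*, *Lmx1b* and *En1* was not tested. *Slc17a6* was higher (log2 3.45) and *Slc17a7* lower (−3.73) in midbrain among 5 glutamate and GABA genes, and 4 of 7 genes of glia and vessels were higher, with sums of 17627 to 19984 TPM against 5172 to 5815 TPM.

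**Figure D2:**
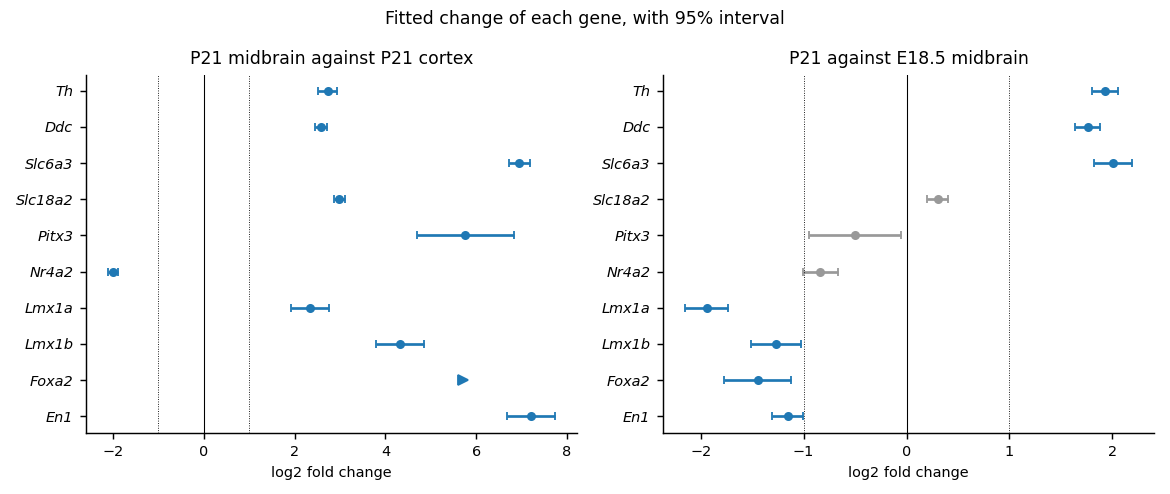
Log2 fold change of each of the 10 genes between P21 midbrain and P21 cortex and between P21 and E18.5 midbrain, with 95% intervals from edgeR. Blue points passed the adjusted p and the 2-fold threshold (dotted lines), grey points did not, and the arrow for *Foxa2* marks a lower bound from a cortex group at 0. All genes but *Nr4a2* lie above 0 for region, whereas for age *Th*, *Ddc* and *Slc6a3* lie at 1.76 to 2.01 and *Lmx1a*, *Foxa2*, *Lmx1b* and *En1* at −1.94 to −1.16.

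Between E18.5 and P21 midbrain, the enzymes and the dopamine transporter rose while most transcription factors fell. Of the 10 genes, 3 were higher at P21 and 4 were lower by edgeR at adjusted p under 0.05 and at least 2-fold. Of 16100 genes tested, 15.8% were higher and 14.4% lower, and the median log2 fold change was −0.67 over the members against −0.012 over all genes. Scaling by library totals alone moved the median of all genes to −0.17 and their split from 2548 higher and 2323 lower to 2140 higher and 2929 lower. All 10 genes kept their direction under that scaling, with 3 higher and 4 lower. The ages were collected as separate sets of libraries, so any batch between them cannot be told apart from age.

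*Th* rose 3.81-fold, from 23.9, 29.3 and 36.6 TPM (lowest, median and highest of 12 libraries) at E18.5 to 89.9 to 108 TPM at P21 (log2 1.93, SE 0.063, adjusted p = 5.14e-20). *Ddc* rose 3.39-fold from 31.5, 37.8 and 43.4 TPM (log2 1.76, SE 0.060, adjusted p = 1.16e-19), and *Slc6a3* 4.02-fold from 11.2, 16.5 and 20.5 TPM (log2 2.01, SE 0.091, adjusted p = 5.5e-17). For all 3 genes every P21 library lay above every E18.5 library. *Slc18a2* stood apart from them. Its E18.5 values of 33.4, 39.0 and 46.9 TPM overlapped those of P21, and its fold of 1.23 (log2 0.30, SE 0.050, adjusted p = 4.12e-06) was below the 2-fold threshold.

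*Lmx1a* fell most (log2 fold change −1.94, SE 0.10, adjusted p = 1.03e-15), followed by *Foxa2* (−1.45, SE 0.16, adjusted p = 3.57e-09), *Lmx1b* (−1.27, SE 0.12, adjusted p = 1.91e-10) and *En1* (−1.16, SE 0.072, adjusted p = 5.21e-14). These 4 factors are expressed by progenitors or young neurons of the midbrain floor plate and its surroundings. The postmitotic factors *Nr4a2* (−0.84, SE 0.081, adjusted p = 4.6e-10) and *Pitx3* (−0.50, SE 0.22, adjusted p = 0.036) were lower by less than 2-fold. Thus *Th* and *Nr4a2*, at 29.6 and 19.1 TPM on average at E18.5, stood at 97.8 and 9.25 TPM at P21.

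Of the 14 further markers of dopamine neurons, 5 rose with age (*Aldh1a1*, log2 3.27, *Sncg*, 1.88, *Chrna6*, 1.58, *Chrnb3*, 1.56, and *Ret*, 1.25). The 3 that fell were the transcription factors *Otx2* (−2.09), *En2* (−2.07) and *Foxa1* (−1.61). Of the 6 biopterin genes, *Qdpr* (2.03) and *Spr* (1.06) rose and 0 fell, while *Gch1*, the first enzyme of the pathway, had a log2 fold change of 0.06 (SE 0.097, adjusted p = 0.55). *Drd5* (2.02) and *Drd2* (1.17) rose among 3 receptor genes tested, and *Maob* (2.64) among 3 genes of breakdown. *Tph2* (1.82) of 3 serotonin and *Dbh* (1.48) of 4 noradrenaline markers rose, both enzymes of transmitter synthesis like *Th*, and 0 fell. At E18.5 these markers ranged over 10.2 to 15.6 TPM (*Tph2*), 23.9 to 36.8 (*Slc6a4*), 0.799 to 2.51 (*Fev*), 6.21 to 12.1 (*Dbh*), 5.30 to 8.97 (*Slc6a2*) and 0.590 to 2.62 TPM (*Phox2a*).

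Marker genes of other cells changed with age in the same tissue. Of 7 genes of glia and vessels, 6 rose and 0 fell, with *Mbp* at 8.54 and *Mog* at 5.62 on the log2 scale, and their sum went from 151 to 226 TPM at E18.5 to 17627 to 19984 TPM at P21. Of 8 markers of neighbouring regions tested out of 9, 5 rose (*Oxt*, *Hcrt*, *Pmch*, *Cbln3* and *Avp*) and 0 fell, and the hindbrain sum was 4.18 to 15.6 TPM at E18.5 and 2.19 to 10.4 TPM at P21. Of 5 glutamate and GABA genes, 3 rose (*Slc17a7*, *Gad2* and *Slc32a1*) and 0 fell. The part of these changes in the levels of the 10 genes was not tested.

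The genotype comparison asks whether humanized NOVA1 altered the level of these transcripts. None of the 10 genes differed between hu and wt in midbrain at E18.5 (0 of 10) or P21 (0 of 10), or in cortex (0 of 6 tested, since *Pitx3*, *Lmx1b*, *Foxa2* and *En1* had too few counts), by edgeR at p under 0.05 and adjusted p under 0.1. The share of all genes called was 0% in each tissue, of 15540, 15972 and 15767 tested, and DESeq2 called 0 in each as well. In the study's own edgeR analysis at these thresholds, a gene outside the 10 was lower in hu P21 midbrain. At an unadjusted p under 0.05, edgeR gave 201, 426 and 450 genes, or 1.29%, 2.67% and 2.85%. Wt and hu libraries of the same replicate number deviated together, and these fits did not use that pairing. Their p-values may therefore be too large and their intervals too wide. With the replicate number as a block, edgeR gave 840, 738 and 905 genes at an unadjusted p under 0.05, and none of the 10 genes was called.

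For the enzymes and transporters the intervals were narrow in midbrain at P21 and wider at E18.5. At P21, log2 fold changes of hu over wt were 0.05 for *Th* (95% interval −0.09 to 0.19), 0.02 for *Slc6a3* (−0.14 to 0.17), 0.03 for *Ddc* (SE 0.050) and 0.06 for *Slc18a2* (SE 0.062). At E18.5 they were −0.14 (SE 0.094), −0.02 (SE 0.14), −0.03 (SE 0.098) and −0.04 (SE 0.069) in the same order. Wt and hu libraries overlapped for all 4 genes at both ages. In cortex, where counts were lower, values were −0.19 for *Th* (SE 0.19), −0.16 for *Ddc* (SE 0.11), 0.31 for *Slc6a3* (SE 0.40) and −0.04 for *Nr4a2* (SE 0.072).

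*Lmx1a* and *Pitx3* at E18.5 showed the largest genotype differences relative to their error. *Lmx1a* was at 6.32, 7.54 and 8.37 TPM (lowest, median and highest of 6) in hu and at 7.60, 8.64 and 9.55 TPM in wt, with overlapping ranges and a log2 fold change of −0.23 (95% interval −0.41 to −0.04). In 6 of 6 same-numbered pairs the hu library was below the wt library, and the share of all genes with every pair one way was not computed. *Pitx3* was at 0.613, 1.25 and 1.88 TPM in hu and at 1.24, 1.71 and 2.87 TPM in wt (log2 fold change −0.61, SE 0.29). Its hu library was above the wt library in the pair numbered 3 (1.88 against 1.24 TPM) and below it in the other pairs. The unadjusted p of the edgeR test was 0.019 for *Lmx1a* and 0.0513 for *Pitx3*, and both had an adjusted p of 1 and did not pass. In P21 midbrain their log2 fold changes were −0.12 and −0.08. In P21 cortex that of *Lmx1a* was 0.29 (95% interval −0.55 to 1.13), on 6 to 23 counts per library, and *Pitx3* was not tested. The genotype effect did not pass the test of a difference between regions or between ages for any of the 10 genes (edgeR interaction at adjusted p under 0.1, 0% called of 16345 and of 16330 genes, with 373 and 303 at an unadjusted p under 0.05 and 0 by DESeq2). The lowest unadjusted p was 0.107 for *Ddc* between regions and 0.1 for *Lmx1b* between ages.

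**Figure D3:**
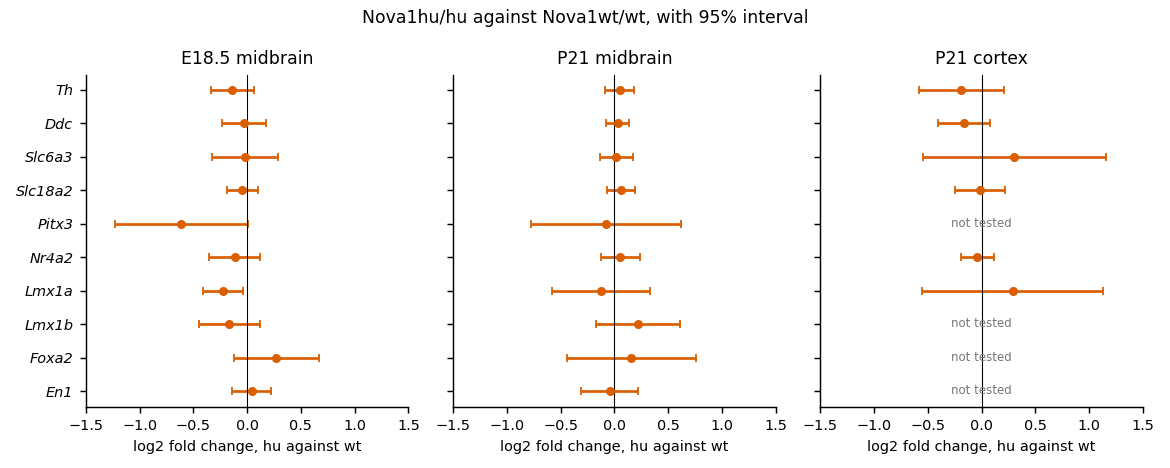
Log2 fold change of hu over wt for the 10 genes in midbrain at both ages and in cortex at P21, with 95% intervals from edgeR. No gene passed the test in any panel, and 4 genes were not tested in cortex. The intervals of *Th*, *Ddc* and *Slc6a3* are narrower in midbrain than in cortex.

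Covariation across single libraries was examined after removing the mean of each genotype from log2(TPM + 0.1), within E18.5 midbrain (12 libraries) and P21 midbrain (8 libraries). Of the 45 pairs among the 10 genes, 0 passed an adjusted p under 0.05 at either age in permutation tests within genotype (two-sided), and 2 pairs at E18.5 and 8 at P21 had an unadjusted p under 0.05. At P21 the exact test over 576 arrangements cannot give a p below 0.00174, or 0.078 after adjustment over 45 pairs, so no single pair could have passed. The median r was 0.076 at E18.5 and 0.134 at P21, and 25 and 26 of the 45 pairs were positive. Pairs with an absolute r of at least 0.7 numbered 1 at E18.5 and 9 at P21. The level over all tested genes also differed between the ages, since 0.534% to 9.68% of genes had an absolute r of at least 0.7 with a given member at E18.5 and 5.13% to 14.5% at P21, so the counts of the ages are not compared.

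The closest pair was *Th* and *Slc6a3* at P21, with r = 0.980 and rho = 0.976 over 8 libraries (exact permutation p = 0.00174 for both, adjusted p = 0.0781). Without the 2 libraries farthest from the median of *Th*, r was 0.962, and with any 1 library left out it was 0.976 to 0.990. Both genes were highest in the third replicate of each genotype, at 108 and 107 TPM for *Th* and 66.2 and 60.9 TPM for *Slc6a3* in wt and hu. Libraries with the same replicate number deviated together, so the 8 libraries are not 8 independent points and these p-values may be too small. Over the 4 means of same-numbered libraries r was 0.998, and over the 4 differences between hu and wt of the same number it was 0.930. Only 0.025% of the genes tested had a higher r with *Th* than *Slc6a3* did, and 0.0063% had a higher r with *Slc6a3* than *Th* did. At E18.5 the pair had r = 0.432 and rho = 0.315 over 12 libraries (permutation p = 0.187 and 0.345, adjusted p = 0.758 and 0.889), and the difference between ages was not tested.

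*Ddc* and *Pitx3* also had a high r with both genes at P21, without passing the adjusted threshold. *Ddc* had r = 0.879 with *Slc6a3* (rho 0.905, exact permutation p = 0.0347 and 0.0208, adjusted p = 0.246 and 0.134) and 0.832 with *Th* (rho 0.881, exact permutation p = 0.0382 and 0.0260, adjusted p = 0.246 and 0.146). These stood at 0.805 and 0.827 without the 2 farthest libraries, and 1.72% of tested genes had a higher r with *Th* than *Ddc* did, while 1.21% had a higher r with *Ddc* than *Th* did. *Pitx3* had r = 0.787 with *Th* (rho 0.905, exact permutation p = 0.0139 and 0.00868, adjusted p = 0.234 and 0.0977) and 0.818 without the 2 farthest. Its r with *Slc6a3* was 0.71 (rho 0.881, exact permutation p = 0.0156 and 0.00868, adjusted p = 0.234 and 0.0977), and *Pitx3* rested on 9 to 21 counts per library. A higher r was found for 2.83% of genes with *Th* and 5.14% with *Slc6a3* than for *Pitx3*, so many genes were as close to them. The relation of *Slc18a2* rested on the third replicates, since r with *Th* went from 0.797 (rho 0.571, exact permutation p = 0.0590 and 0.184, adjusted p = 0.295 and 0.637) to −0.297 and r with *Slc6a3* from 0.768 (rho 0.476, exact permutation p = 0.0677 and 0.297, adjusted p = 0.298 and 0.773) to −0.352 without the 2 farthest libraries.

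The other pairs with an absolute r of at least 0.7 at P21 involved the LIM homeodomain factors. *Ddc* and *Lmx1b* had r = −0.705 (rho −0.881, exact permutation p = 0.0208 and 0.00868, adjusted p = 0.234 and 0.0977) and −0.892 without the 2 farthest libraries. *Lmx1b* had r = −0.640 with *Slc6a3* and −0.597 with *Th* (exact permutation adjusted p = 0.298 and 0.553, rho −0.690 and −0.738, adjusted p = 0.291 for both). *Nr4a2* and *Lmx1a* had r = 0.779 (rho 0.881, exact permutation p = 0.0469 and 0.0174, adjusted p = 0.264 and 0.130), which was 0.312 without the 2 farthest.

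At E18.5 the 2 pairs with an unadjusted p under 0.05 were not among those at P21, and the difference between ages was not tested. *Slc18a2* and *Lmx1b* had r = 0.776 (rho 0.594, permutation p = 0.00933 and 0.0542, adjusted p = 0.420 and 0.749), falling to 0.493 without the 2 farthest libraries. *Slc6a3* and *Lmx1a* had r = −0.653 (rho −0.811, permutation p = 0.0319 and 0.00402, adjusted p = 0.717 and 0.181) and −0.758 without the 2 farthest. *Slc6a3* was high in the first replicate of both genotypes (20.5 TPM in hu, 19.4 in wt) and low in the second (11.9 and 11.2).

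**Figure D4:**
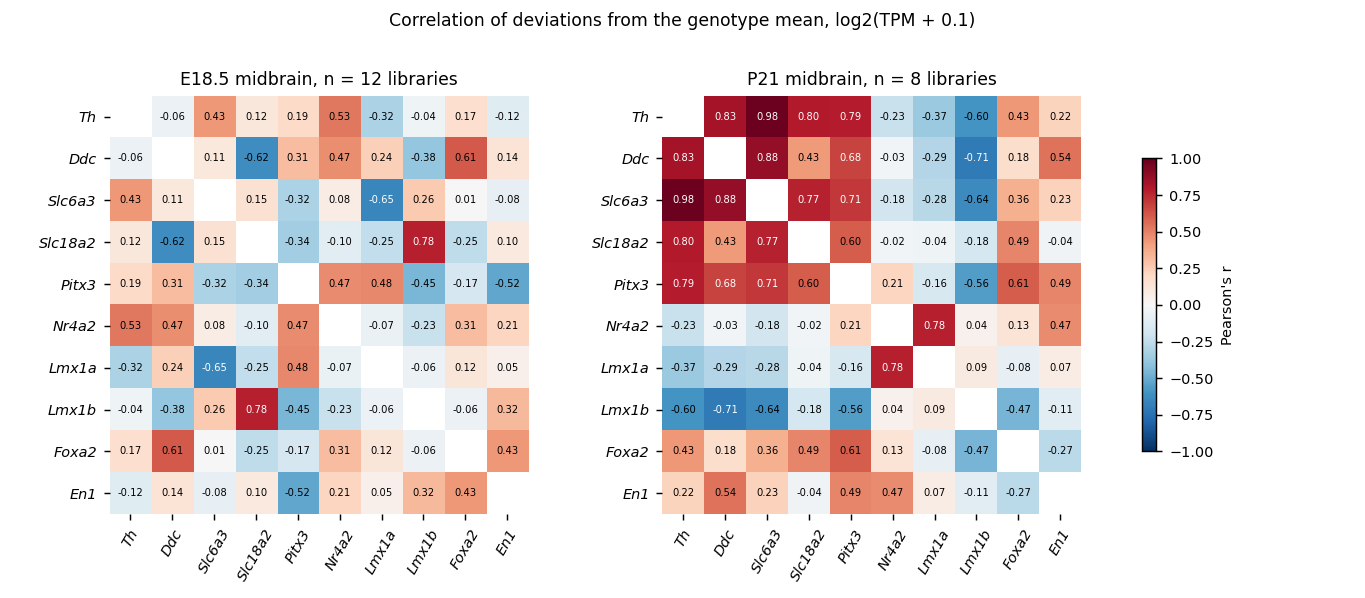
Pearson r between each pair of the 10 genes across the 12 libraries of E18.5 midbrain and the 8 libraries of P21 midbrain, from log2(TPM + 0.1) with the genotype mean removed. At P21, *Th*, *Ddc*, *Slc6a3* and *Pitx3* have values from 0.678 to 0.980 with each other and *Lmx1b* has −0.705 to −0.597 with *Th*, *Ddc* and *Slc6a3*. At E18.5 the same pairs have −0.318 to 0.432 and −0.384 to 0.264. These pairs were picked by their P21 values, and the difference between ages was not tested.

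How far these deviations exceeded counting error differed by gene. At P21 the SD of the log2 deviations was 0.130 for *Slc6a3* and 0.106 for *Th*, against 0.031 and 0.033 from counting alone and 0.107 for the median gene. For *Pitx3* (0.289) and *Foxa2* (0.261) the SD did not exceed that from counting. At E18.5 *Slc6a3* had an SD of 0.290 against 0.074 from counting, and 18.6% of genes varied more.

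The deviations of *Th* and *Slc6a3* were compared with those of markers of other cells and regions. These 16 markers, of serotonin and noradrenaline neurons, hypothalamus, hindbrain and cerebellar granule cells, were set against both genes after the data were seen, which gave 32 relations per age. At P21, *Hoxb2* of the hindbrain was at 1.74, 2.13, 1.01 and 2.83 TPM in hu replicates 1 to 4 and at 2.90, 3.03, 0.377 and 2.38 TPM in wt. The third replicate of each genotype was thus the lowest for *Hoxb2* and the highest for *Th* and *Slc6a3*. *Pmch*, a peptide of hypothalamic neurons, was highest there, at 191 TPM in hu and 199.7 TPM in wt against 147 to 172 TPM in the other 6 libraries. The other hypothalamic peptides did not all follow *Pmch*. At P21, r with *Th* and *Slc6a3* was 0.73 and 0.656 for *Hcrt*, −0.551 and −0.683 for *Avp*, and −0.0132 and −0.124 for *Oxt*.

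At P21, the markers that passed an adjusted p under 0.05 did so with both genes and with negative r (exact permutation tests, 8 libraries), and of the 9 markers of neighbouring regions these were 2, the hindbrain genes *Hoxa2* and *Hoxb3*. Same-numbered libraries deviated together here too, so these p-values may be too small, as for the pairs of members. *Hoxa2* had r = −0.923 with *Th* and −0.867 with *Slc6a3* (rho −0.810 and −0.786, adjusted p = 0.0278 for both r and 0.136 for both rho). *Hoxb3* had −0.939 and −0.905 (rho −0.905 and −0.881, adjusted p = 0.0370 and 0.0278 for r and 0.0694 for both rho). Without the 2 libraries farthest from the median of *Th* or *Slc6a3* the values of *Hoxa2* and *Hoxb3* lay between −0.967 and −0.796. No relation passed by ranks. Of all genes tested at P21, 14.3% had an absolute r of at least 0.7 with *Th* and 14.5% with *Slc6a3*. The granule cell genes *Gabra6* (r = −0.759 and −0.801) and *Cbln3* (−0.726 and −0.773) were negative too and did not pass. Without the 2 farthest libraries their r was 0.0749 to 0.317. The 3 serotonin markers had a positive r with both genes, from 0.447 to 0.774, and did not pass. Without the 2 farthest libraries the r of the serotonin markers was −0.697 to −0.0459. *Hoxb2* (−0.927 and −0.958, adjusted p = 0.0694 and 0.0635) and *Pmch* (0.872 and 0.853, adjusted p = 0.0988 and 0.133) missed the threshold for r in these exact tests, and *Pmch* rested on the third replicates, with 0.0524 and −0.148 without the 2 farthest libraries. At E18.5 no relation passed. The lowest adjusted p there was 0.130, for *Slc6a3* with *Hoxb2* among others (r = −0.772, rho −0.629, permutation test, 12 libraries). The second replicate of both genotypes was the highest for *Hoxb2* at E18.5 (3.24 TPM in hu, 2.11 in wt) and the lowest for *Slc6a3*. The part of these markers in the correlation of *Th* with *Slc6a3* was not tested.

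**Figure D5:**
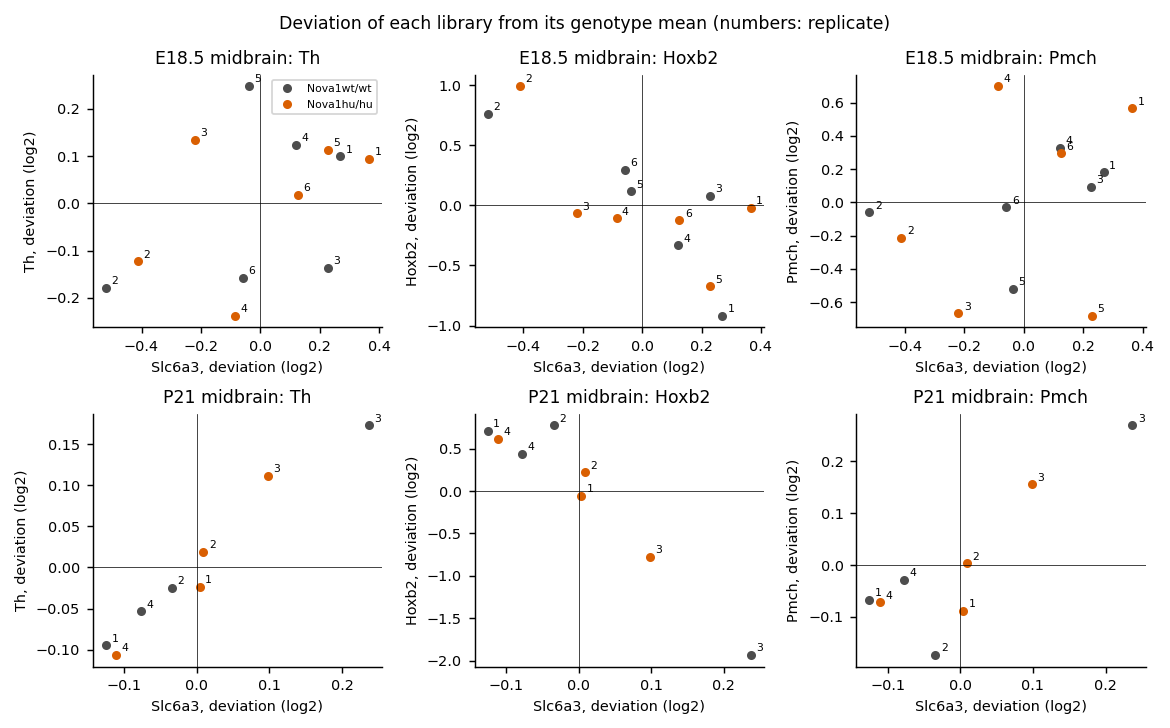
Deviation of *Slc6a3* from its genotype mean, in log2(TPM + 0.1), against that of *Th*, *Hoxb2* and *Pmch* in E18.5 midbrain (12 libraries) and P21 midbrain (8 libraries). Numbers are replicate numbers, grey is wt and orange is hu. At P21 both libraries numbered 3 lie at the top for *Slc6a3*, with the highest *Th* and *Pmch* and the lowest *Hoxb2*, and at E18.5 both libraries numbered 2 lie at the bottom with the highest *Hoxb2*.

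Genes with the pattern most like that of *Slc6a3* and of *Th* were listed from 14671 genes with a mean of at least 1 TPM at both ages, by r over all 20 midbrain libraries after removing each group mean. For *Slc6a3* these included *Scarna13* (r = 0.762), *B830017H08Rik* (0.756), *Ncald* (0.717), *Rbm38*, the dopamine neuron marker *Chrnb3* (0.695), *1700019D03Rik* (0.692), *Stxbp6* (0.681), *BC037032* (0.680) and *Grm5* (0.679). For *Th* they were *Plagl2* (0.775), *Aldh3b2* (0.744), *Mir544* (0.730), *1700001C02Rik* (0.723), *Hpgds* (0.717), *1700020L24Rik* (0.697), *Gm12238* (0.686), *Mir688* (0.686), *Mir325* (0.682) and *Tsku* (0.680). With the ages pooled in this way, *Th* came at rank 118 of the list for *Slc6a3* (r = 0.508) and *Slc6a3* at rank 124 of the list for *Th*. By age, *BC037032* had r = 0.831 with *Slc6a3* at E18.5 and −0.480 at P21, and *1700019D03Rik* had 0.796 and −0.0642. The other genes named from the tops of these lists had a positive r at both ages. How high r would be at the top of so many unrelated genes was not tested.

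Positions are given on GRCm38 (mm10). By RefSeq the genes span chr7:142892779-142899995 (*Th*), chr11:11814101-11898144 (*Ddc*), chr13:73536128-73578672 (*Slc6a3*), chr19:59260878-59296012 (*Slc18a2*) and chr19:46135281-46148325 (*Pitx3*). The others are at chr2:57106830-57124003 (*Nr4a2*), chr1:167688230-167848741 (*Lmx1a*), chr2:33560965-33641208 (*Lmx1b*), chr2:148042877-148046969 (*Foxa2*) and chr1:120602487-120607991 (*En1*). Counts were over exons, with exon lengths of 1219 (*Lmx1b*) to 3803 bases (*Slc18a2*). *Ddc*, *Pitx3* and *Lmx1b* overlap a listed gene (*1700042O10Rik*, *Elovl3* and *C130021I20Rik*), and because strand use in counting is not given in the sources used here, reads in shared bases could have gone to either gene.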

How the data were processed

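Poly(A)-selected RNA from midbrain (E18.5 and P21) and cortex (P21) was sequenced as paired-end reads. The authors used OLego for alignment to mm10 and Quantas for counting, and deposited for each library expected counts per gene (751 to 2711 genes per library were not whole, at a tolerance of 1e-09), the exon length and RPKM. RPKM as deposited by the authors was count per exon length and library total (largest relative difference 2.27e-13). TPM was computed here from counts before rounding and the deposited exon lengths. The depth of each library sets the counting error of low genes such as *Pitx3*.

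For tests, counts were rounded and fitted with edgeR 4.0.16 (R 4.3.3, limma 3.58.1) by the quasi-likelihood test with TMM factors, after filterByExpr, within each tissue and age for genotype and with genotype as covariate for region and age. P-values were adjusted over all genes by Benjamini-Hochberg. Calls needed p under 0.05 and adjusted p under 0.1 for genotype, adjusted p under 0.1 for interactions, and adjusted p under 0.05 with at least 2-fold for region and age. DESeq2 1.42.0, RLE factors, other filters on low counts, other thresholds, scaling by library totals, wt or hu libraries alone, each library left out and a replicate block were alternatives. Covariation used log2(TPM + 0.1) minus the genotype mean, with 100000 permutations within genotype at E18.5 and all 576 at P21. The scripts were tested on simulated data.

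Groups and replicate numbers came from the labels. Same-numbered wt and hu libraries deviated together in every pair (r 0.256 to 0.499 at E18.5, 0.266 to 0.300 for midbrain at P21 and 0.252 to 0.310 for cortex, against medians of −0.096, −0.125 and −0.167 for other numbers). The numbers were therefore read as pairing the genotypes, although the labels do not say what a number marks. The main genotype fits did not use this pairing, which entered only as the replicate block. The study describes its replicates as biological and its RNA-seq as balanced between male and female pairs. The labels used here tie neither an animal nor a sex to a library, so sex was not a term in any fit, and p-values measure the spread between these libraries. The 10 genes, the gene lists and the tests were chosen with earlier results of these data known. Of each other list, up to 4 genes that passed with the largest changes were named, with the genes of the serotonin and noradrenaline lists. Further names and *Gch1* with age were added after the values were seen. The 10 genes with the highest r to *Slc6a3* and to *Th* were to be named. Some genes that these rules name are not reported here.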

Additional observations from a re-analysis of the deposited data

Results flagged for a closer look

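Within the 52 groups of 4 to 6 libraries tested among the 10 genes, 4 held a library far from the rest, where chance gives about 1 in 20. In P21 midbrain, hu replicate 4 was the lowest for *Ddc*, at 106.67 TPM against 112.21 to 113.09 TPM in the other 3. There, hu replicate 3 was the highest for *Slc18a2*, at 47.532 TPM against 41.642 to 42.524 TPM. At E18.5, hu replicate 5 was the highest for *Lmx1b*, at 18.95 TPM against 10.793 to 13.106 TPM, and the wide spread of the hu group for this gene came from that library. Wt replicate 6 was the lowest for *Foxa2* at E18.5, at 1.9651 TPM against 2.4883 to 2.6842 TPM. For no member did every hu and wt pair move in opposite directions between tissues or ages.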

How the results depend on the processing

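The counts of the 10 genes that differed by genotype (0 in each tissue), region and age, and of pairs that covaried, were the same or within 1.5 times under 214 alternatives and moved under 8. With at least 10 counts required in every library, fewer genes could be tested and 3 (*Th*, *Ddc* and *Slc18a2*) were higher in P21 midbrain than in cortex, against 9. Without removing the genotype mean, 1 pair passed at P21 (*Th* and *Slc6a3*, r = 0.968) against 0. That setting shuffled libraries across genotypes and so had a lower floor for p, whereas no single pair could pass the main test at P21. The 4 means of same-numbered libraries at P21 also allow too few arrangements for a single pair to pass. These counts of passing pairs at P21 therefore do not show how stable the pairs are. Pairs with an absolute r of at least 0.7 numbered 1 to 3 at E18.5 and 7 to 12 at P21 with 1 library left out. Without a fold threshold, *Slc18a2* (0.30), *Pitx3* (−0.50) and *Nr4a2* (−0.84) also passed for age, giving 4 higher and 6 lower, and over all genes 12028 passed for region against 2435 and 13737 for age against 4871. The replicate block called 0 of the 10 genes for genotype in each tissue, and 0, 3 and 0 of all genes against 0, 0 and 0, and it changed no other call. At an unadjusted p under 0.05 in edgeR, the block gave 840, 738 and 905 genes of 16141, 16364 and 16151 tested. Without it there were 201, 426 and 450. With genotype and number as the block between regions, whose numbers did not pair (r −0.221 to −0.119 for matching midbrain and cortex libraries), 9 and 1 of the 10 genes and 2672 of all genes passed. Leaving out 1 library turned the sign of 10 of 26 uncalled genotype values: at E18.5 *Ddc* (−0.093 to 0.014) and *Slc6a3* (−0.11 to 0.055), in P21 midbrain *Ddc* (−0.0092 to 0.072), *Slc6a3* (−0.025 to 0.11), *Pitx3* (−0.18 to 0.068), *Lmx1a* (−0.28 to 0.0023) and *En1* (−0.12 to 0.038), and in cortex *Slc18a2* (−0.095 to 0.044), *Nr4a2* (−0.10 to 0.00044) and *Lmx1a* (−0.032 to 0.52). Region and age values kept their direction in all alternatives. Depth limits *Pitx3* and *Foxa2* in midbrain and *Pitx3*, *Lmx1b*, *Foxa2* and *En1* in cortex.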
